A study of Mus musculus with 28 samples.

Results

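A set of 9 genes of upper-layer projection neurons was followed in mouse cortex with 1 or both copies of Myt1l knocked out: Pou3f1, Pou3f2, Pou3f3, Cux1, Cux2, Lhx2, Rorb, Mef2c and Unc5d. They were chosen by symbol, and all 9 were present among the 13846 genes listed for the embryonic cortex and the 14104 listed for the adult prefrontal cortex (PFC). The 28 RNA sequencing libraries came from E14.5 embryonic cortex (6 wild-type, WT, 6 heterozygous, Het, and 4 homozygous, Hom) and from adult PFC (6 WT and 6 Het). Het and Hom refer to knockout of Myt1l, the gene of a neuronal zinc-finger transcription factor, and all groups come from 1 mouse line. How the allele was made, the strain and the adult age are not stated in the labels. No identifier is shared between libraries, and sexes by label were 5 females and 1 male in WT embryos, 3 and 3 in Het and 3 and 1 in Hom, with 3 females and 3 males in both adult groups.

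The upper layers of the neocortex hold late-born projection neurons that connect cortical areas with each other and across the corpus callosum. The POU-domain factors Pou3f2 and Pou3f3 act in progenitors and young neurons and are needed together for the production and migration of these cells, and Pou3f1 is a related factor. The homeodomain factors Cux1 and Cux2 shape dendrites and spines of upper-layer neurons. Lhx2, a LIM-homeodomain factor, is strong in cortical progenitors and sets cortical identity. Rorb is a nuclear receptor of the layer that receives thalamic input. Mef2c is a MADS-box factor of differentiating neurons that limits synapse number, and it is also used by endothelial cells and microglia. Unc5d is a receptor for netrins and FLRT proteins carried by young upper-layer neurons on their way to the cortical plate.

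The sequence just before the transcription start was examined for letters that the MYT1 and POU families are known to bind. RefSeq promoters on build GRCm38.p6 covered 7 of 9 members with 12 start sites, and Pou3f1 and Unc5d were not among them. The motif AAGTT, the core bound by MYT1 family zinc fingers, was searched on both strands within 250 bases before each start and stood in 3 of 12 member promoters, against 35.2% of 32536 promoters of all genes. The octamer ATGCAAAT, bound by POU factors, stood in 0 of 12 member promoters and in 1.62% of all promoters, so no match of one motif overlapped a match of the other. The promoters of 3 members are shown, 5′ to 3′ on the strand of the gene, with AAGTT or its reverse complement in capitals. They are that of Pou3f2, the member that separated Het from WT embryos (chr4:22488367-22488616, minus strand, 66.8% GC), the most upstream start of Cux2, the adult member closest to the threshold (chr5:122049852-122050101, minus strand, 80% GC), and the most upstream start of Mef2c, which held the most matches (chr13:83503784-83504033, plus strand, 33.6% GC).
Pou3f2: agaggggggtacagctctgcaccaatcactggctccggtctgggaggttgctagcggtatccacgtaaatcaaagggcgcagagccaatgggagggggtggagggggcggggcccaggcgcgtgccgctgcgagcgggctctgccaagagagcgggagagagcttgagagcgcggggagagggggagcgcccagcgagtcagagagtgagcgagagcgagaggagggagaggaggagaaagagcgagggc
Cux2: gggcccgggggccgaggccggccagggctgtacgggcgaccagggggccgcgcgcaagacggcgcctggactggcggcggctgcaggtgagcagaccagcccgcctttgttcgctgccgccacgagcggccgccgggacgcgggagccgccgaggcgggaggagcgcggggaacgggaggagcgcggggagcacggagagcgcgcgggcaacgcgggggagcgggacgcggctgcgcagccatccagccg
Mef2c: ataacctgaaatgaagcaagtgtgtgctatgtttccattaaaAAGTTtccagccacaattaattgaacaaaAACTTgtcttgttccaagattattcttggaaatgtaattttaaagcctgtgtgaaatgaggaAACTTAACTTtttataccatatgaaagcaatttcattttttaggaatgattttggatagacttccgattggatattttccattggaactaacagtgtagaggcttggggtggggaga
Neither the Pou3f2 nor the Cux2 window held AAGTT. The Mef2c window held 4 matches, starting 208, 179, 117 and 112 bases before the start site, a second Mef2c start held 2 and the Cux1 promoter held 1. A match is only a match of letters, and binding was not measured in these libraries.

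Values are CPM, counts scaled library by library with the upper quartile made equal, and were recovered from the deposited log2 values. The libraries do not share a common CPM total. Sums of CPM ran from 940452 (Hom F09) to 1.05359e+06 (WT F09) in E14.5 and from 954511 (Het M05) to 1.03999e+06 (Het M09) in PFC. Recovered totals were 27827467 to 30811856 per E14.5 library and 19601294 to 21275162 per PFC library after the authors' scaling. The sequencing depth itself is unknown. Myt1l measured 18.1 to 23.3 CPM in Hom embryos against 45.9 to 66.6 CPM in WT. It measured 30.6 to 59.5 CPM in Het embryos, a range that overlapped WT (log2 change -0.39, SE 0.15, limma adjusted p = 0.125), and in the PFC each Het library lay below each WT library. The Y-linked gene Ddx3y went against the labelled sex in a pair of Het embryos, with 21.6 CPM in F10, labelled female, and 0 CPM in M11, labelled male. The called changes of members are given with and without this pair. The same pair had the lowest Myt1l among Het embryos, 30.8 CPM in F10 and 30.6 CPM in M11, against 41.1 to 59.5 CPM in the others. Markers of cortical projection neurons were present, with summed levels of 1388 to 1723 CPM in WT embryos. Throughout, a gene is described as called, or as having risen or fallen, where limma's p-value, adjusted over all genes tested in that tissue, was under 0.05. All 9 members passed the filter on low values in both tissues.

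In WT embryos the members differed widely in level per length. Lhx2 was the highest, at 76.6 CPM per kb of its longest transcript ± 2.74 (SD, n = 6). Pou3f3 (13.1), Mef2c (12.6) and Cux1 (12.2 CPM per kb) followed, and neighbours in that order overlapped in range. Pou3f2 stood at 8.44 and Cux2 at 4.90 CPM per kb, each apart from its neighbours. Unc5d (1.21), Pou3f1 (0.939) and Rorb (0.717 CPM per kb) formed an overlapping low end. These libraries were made from whole tissue, so the layer or cell type that holds each transcript was not measured.

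The order in adult WT PFC was different, with Mef2c at 118 CPM per kb ± 3.17 (SD, n = 6) and Rorb at 9.57 ± 0.598. Cux2 (6.77), Pou3f2 (5.23), Cux1 (5.19) and Lhx2 (4.79 CPM per kb) overlapped neighbour by neighbour, and so did Pou3f3 (2.83), Pou3f1 (2.67) and Unc5d (2.29 CPM per kb) at the low end. The tissues were normalised separately, so values between them are set side by side with no test. Lhx2 measured 217 CPM in WT embryos and 13.6 CPM in WT adults, and Pou3f3 96.7 and 20.9 CPM. Mef2c measured 79.0 and 739 CPM, and Rorb 6.66 and 88.9 CPM. Thus Lhx2, the member with the highest embryonic level, had rank 6 of 9 per kb in the adult, within the overlapping middle group. Rorb went from the overlapping low end in embryos to rank 2 in the adult.

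**Figure D1:**
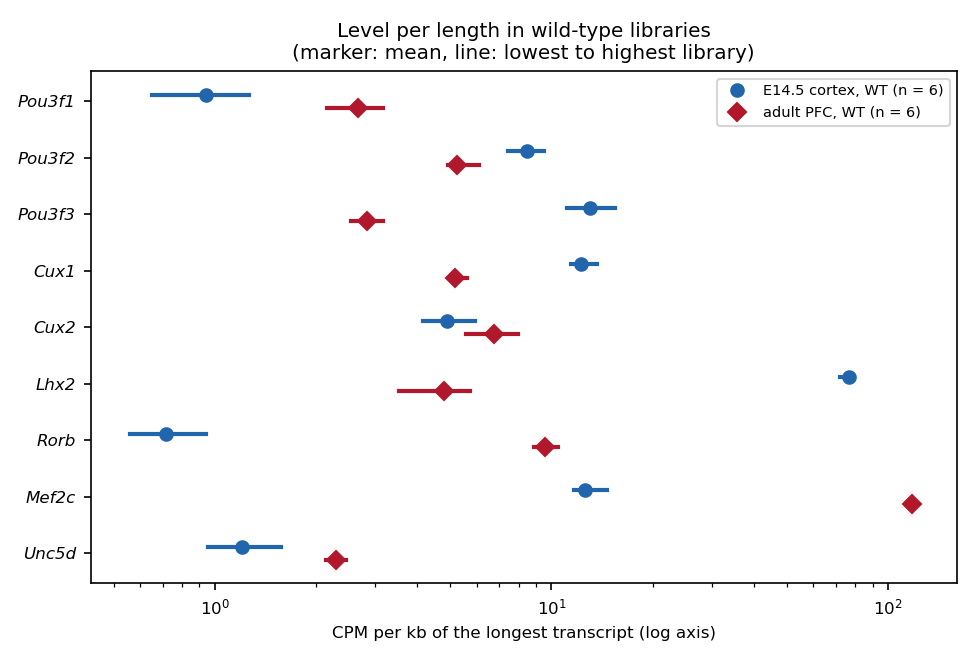
Level of the 9 members in wild-type libraries, in CPM per kb of the longest annotated transcript on a log axis. Markers are means of 6 libraries and lines run from the lowest to the highest library. Lhx2 is at 76.6 CPM per kb in embryonic cortex and 4.79 in adult PFC, and Mef2c at 12.6 and 118.

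In Hom embryos, 1 of 9 members rose against WT, Pou3f1, where 7.6% of 12429 genes tested were called and 3.23% were called higher. In Het embryos, Pou3f2 and Unc5d rose, 2 of 9 members, where 5.83% of genes were called and 2.84% called higher. No member fell in either comparison. An unadjusted p under 0.05 was reached by 4 members in Hom (23.2% of all genes) and by 2 members in Het (22.3%). The log2 change was positive for 7 of 9 members in Hom and 8 of 9 in Het, against 52.7% and 54.8% of all genes, and its median over the members was 0.25 and 0.19, against 0.02 and 0.03 over all genes. Both comparisons use the same 6 WT libraries, so their signs are not independent. In whole tissue, more cells of a type and more RNA per cell cannot be told apart.

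Pou3f1 was weakly expressed at E14.5. WT embryos ran from 2.51 to 4.87 CPM with a median of 3.66 CPM. The 4 Hom embryos measured 5.94 (F01), 4.09 (F04), 6.39 (F09) and 8.92 CPM (M02), and Het embryos ran from 3.36 to 7.35 CPM with a median of 5.21 CPM. Of the 4 Hom libraries, 3 lay above each WT library, and Hom F04 was inside the WT range. Pou3f1 rose by 0.68 on the log2 scale in Hom (SE 0.20, limma adjusted p = 0.0398), a fold of 1.60. In Het the change was 0.39 (SE 0.19, adjusted p = 0.229), with 5 of 6 libraries above each WT library.

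The Hom call of Pou3f1 lay close to the threshold. It was kept in 8 of 14 other settings of the test. It was lost with the leading identifier number as a term (adjusted p = 0.0514), without limma's trend and robust options (0.0575) and with RUVr directions as covariates (0.0804). Other losses were after correction for GC content and length (0.58, adjusted p = 0.101), in embryos labelled female (0.55, adjusted p = 0.16) and within 1 leading number, given next. It was also lost without any one of Hom F01, Hom F09, Hom M02, WT M03, WT F04 or WT F09, with adjusted p-values between 0.0731 and 0.128 and changes between 0.59 and 0.66. Among the 11 embryos whose identifiers share the leading number 14424, the change was 0.41 (adjusted p = 0.474), and under the other leading number, with 5 embryos and not fitted here, the Hom embryo was at 8.92 CPM and the WT embryos at 2.51 and 2.91 CPM. Markers of GABAergic neurons were also high in a pair of these Hom libraries: the sum over 9 listed genes of 11 was 50.3 to 88.3 CPM in WT and 64.1 to 148 CPM in Hom, with 148 CPM in Hom F01 and 134 CPM in Hom M02. Of these genes, Sp9 (1.26, SE 0.28) and Dlx1 (0.89, SE 0.23) rose in Hom, and none of the list was at 0 throughout a group. Striatal and ventral genes, summed over 6 listed, were highest among Hom in the same F01 and M02. They measured 33.0 and 29.2 CPM there, against 11.25 to 17.7 CPM in WT, and 1 of them, Ppp1r1b, rose in Hom (0.72, SE 0.20). The part of both lists in the Pou3f1 result was not tested. Without the embryos labelled Het F10 and Het M11 the change was 0.67 (adjusted p = 0.0389).

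Pou3f2 was the member whose Het and WT embryos separated completely. WT embryos ran from 41.6 to 53.1 CPM with a median of 45.6 CPM, and Het embryos from 55.5 to 69.2 CPM with a median of 61.6 CPM. Each Het library lay above each WT library, a pattern found for 1.24% of all genes tested. Pou3f2 rose by 0.36 (SE 0.08, adjusted p = 0.0108), a fold of 1.28. The Hom embryos measured 58.9, 57.0, 51.0 and 59.3 CPM (F01, F04, F09 and M02), and 3 of 4 lay above each WT library. The Hom change of 0.25 (SE 0.08) did not pass the adjusted threshold (adjusted p = 0.0671).

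The Het call of Pou3f2 was kept in 13 of 14 other settings of the test and was lost within the 11 embryos sharing the leading number 14424 (0.34, adjusted p = 0.419), where 0 genes of the whole table were called by limma. Under the other leading number, 14526, Pou3f2 was at 63.8 and 66.5 CPM in Het and 46.2 and 52.2 CPM in WT. Without Het F07 the change was 0.31 (adjusted p = 0.0670), and it was 0.34 (adjusted p = 0.0204) without the embryos labelled Het F10 and Het M11. Choroid plexus markers, at 1408 to 3999 CPM in WT and 3008 to 5222 CPM in Het as the sum over 6 genes, were also high in Het embryos, with none of the 6 called, and their part in the Pou3f2 and Unc5d results was not tested.

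Pou3f3, the third POU factor, varied more among mutants. It ran from 82.2 to 114 CPM in WT (median 95.9 CPM) and from 87.5 to 171 CPM in Het (median 115 CPM), and it measured 97.4, 114, 120 and 136 CPM in Hom F01, F04, F09 and M02. The groups overlapped, and the highest value was that of the library labelled Het M11. The changes were 0.25 in Hom (SE 0.14, adjusted p = 0.277) and 0.19 in Het (SE 0.13, adjusted p = 0.408), so none of the POU factors other than Pou3f1 and Pou3f2 was called in embryos.

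The receptor Unc5d rose in Het embryos. WT embryos ran from 8.82 to 14.498 CPM with a median of 10.7 CPM, and Het embryos from 13.3 to 18.3 CPM with a median of 16.3 CPM. Of the 6 Het libraries, 4 lay above each WT library and all 6 above the WT mean of 11.1 CPM. The log2 change was 0.48 (SE 0.14, adjusted p = 0.0381), a fold of 1.399. Hom embryos measured 13.8 (F01), 14.6 (F04), 12.6 (F09) and 17.4 CPM (M02), each above the WT mean, with a change of 0.38 (SE 0.15, adjusted p = 0.109).

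The Unc5d call was as close to the threshold as that of Pou3f1 and was also kept in 8 of 14 other settings. It was lost with median centring (adjusted p = 0.0513), with only the 2 genotypes fitted (0.0607), without limma's trend and robust options (0.0708), with RUVr directions as covariates (0.0840) and once gene length and GC content were corrected for (0.37, adjusted p = 0.0901). It was also lost without any one of WT F12, WT F05, WT F06, WT F04, Het F02, Het M01 or Het F07 (changes of 0.41 to 0.49, adjusted p from 0.0536 to 0.157) and within the leading number 14424 (0.44, adjusted p = 0.498), and it was 0.57 (adjusted p = 0.0235) without the embryos labelled Het F10 and Het M11. Mitochondrially encoded genes, summed over 9, ran from 5943 to 9034 CPM in WT and from 6568 to 10992 CPM in Het, and mt-Co3 (0.53, SE 0.10, adjusted p = 0.00409) and mt-Co2 (0.48, SE 0.14, adjusted p = 0.0443) rose in Het. The Het libraries highest in that sum, F07, F02 and M01, were also the highest in Unc5d (18.3, 18.2 and 17.6 CPM). In WT, F09 was highest in both. In Hom, F01 had the highest sum (10923 CPM) with Unc5d at 13.8 CPM. Hom M02 had the highest Unc5d (17.4 CPM) with a sum of 7042 CPM. Het F07, F02 and M01 were also the Het libraries highest in the sums of projection neuron and radial glia genes. None of the 9 mitochondrial genes was at 0 throughout a group. The part of these lists in the Unc5d and Pou3f2 results was not tested. The annotation also places Svet1, a transcript known from upper-layer precursors, on the same strand within Unc5d (chromosome 8, 28646717 to 29219636). Svet1 had no row of its own, and whether any of its reads were counted under Unc5d is not known.

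**Figure D2:**
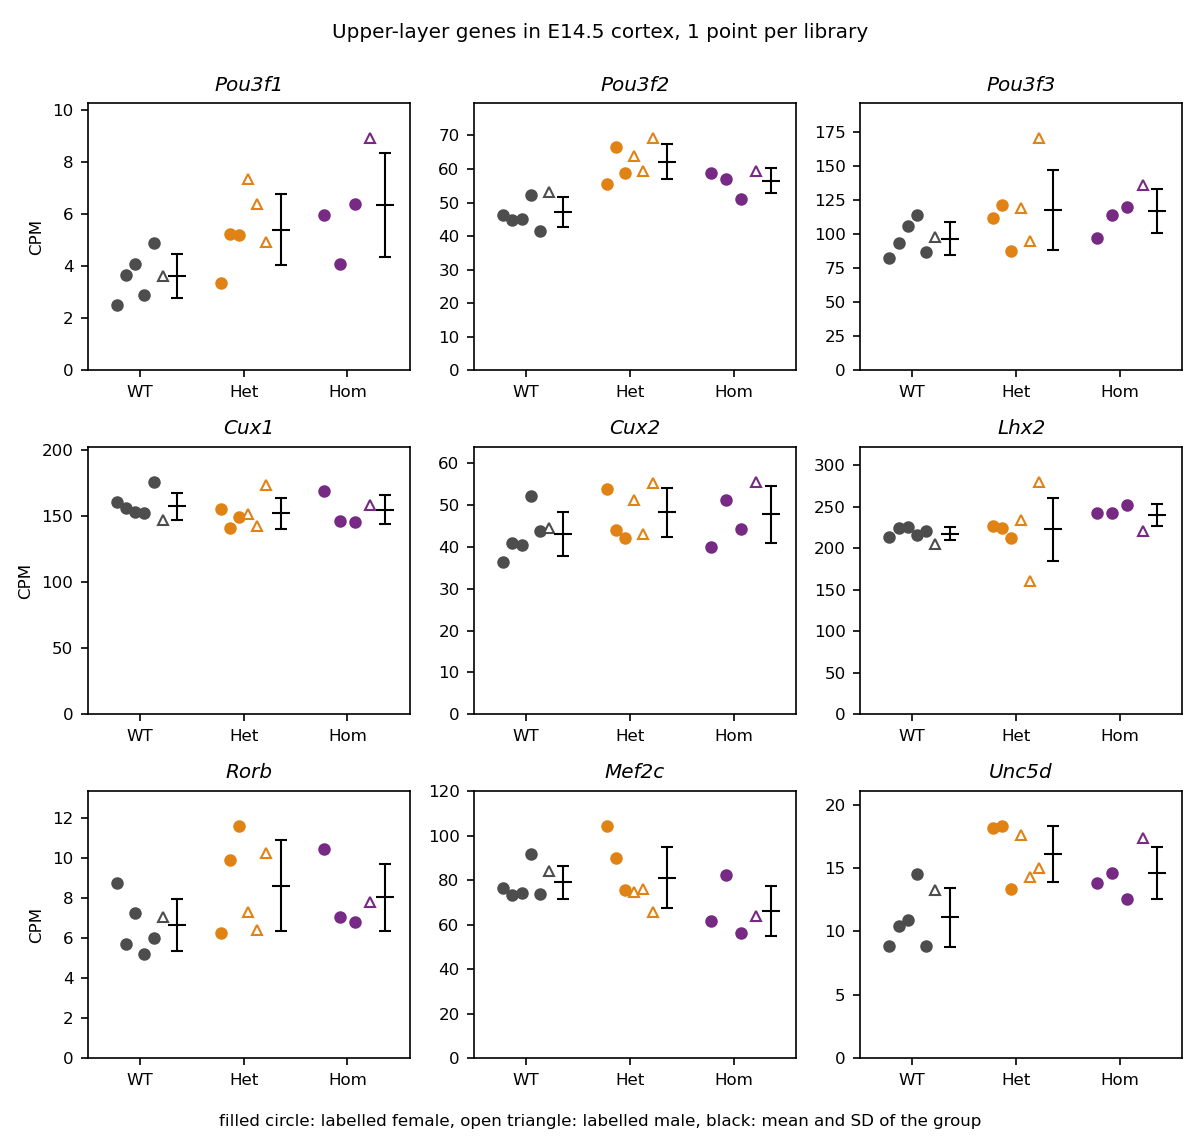
CPM of each member in E14.5 cortex, 1 point per library on axes that start at 0, with filled circles for embryos labelled female and open triangles for those labelled male, and the mean and SD of each group in black. The Pou3f2 points of Het (55.5 to 69.2 CPM) lie wholly above those of WT (41.6 to 53.1 CPM).

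The homeodomain factors were not called in embryos. Cux1 measured 158 CPM ± 10.1 (SD, n = 6) in WT, 152 ± 11.7 in Het and 155 ± 10.9 in Hom, with overlapping ranges, and the 95% interval of the Hom change ran from -0.18 to 0.13. Cux2 ran from 36.4 to 52.2 CPM in WT, from 42.1 to 55.2 CPM in Het and from 40.01 to 55.5 CPM in Hom, and changed by 0.13 in Hom (adjusted p = 0.485) and 0.12 in Het (adjusted p = 0.534). Lhx2 was narrow in WT, at 205 to 225 CPM, and measured 243, 243, 253 and 221 CPM in Hom F01, F04, F09 and M02. Of the 4 Hom libraries, 3 lay above each WT library, but the change of 0.15 (SE 0.09) was not called (adjusted p = 0.377). The lowest and the highest Lhx2 levels were both in Het embryos, 161 CPM in M07 and 280 CPM in the library labelled M11.

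Rorb was near the low end at this age. It ran from 5.20 to 8.76 CPM in WT and from 6.24 to 11.6 CPM in Het, and measured 10.5, 7.06, 6.83 and 7.81 CPM in Hom F01, F04, F09 and M02. The groups overlapped, and the changes of 0.26 in Hom (SE 0.19, adjusted p = 0.436) and 0.35 in Het (SE 0.18, adjusted p = 0.243) had wide intervals, the latter from -0.01 to 0.72.

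Mef2c was the member with the lowest change in Hom embryos. WT embryos ran from 73.2 to 91.9 CPM with a median of 75.4 CPM, and Hom embryos measured 61.8 (F01), 82.1 (F04), 56.4 (F09) and 64.1 CPM (M02). Of these, 3 lay below each WT library and Hom F04 lay within the WT range. The log2 change of -0.25 (SE 0.11) was not called (adjusted p = 0.159), although it passed after correction for GC content and length (-0.36, adjusted p = 0.0486). In Het embryos Mef2c ran from 65.8 to 104 CPM, on both sides of WT, with a change of 0.07 (adjusted p = 0.746). Endothelial markers, summed over 7 genes, measured 45.5 to 110 CPM in WT, 52.7 to 107 CPM in Het and 40.8 to 89.2 CPM in Hom, with none called and none at 0 throughout a group, and their part in the Mef2c values was not tested.

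Hom and Het embryos were also compared directly. None of the 9 members was called between them, where 0.00805% of genes, Myt1l alone, were called. At an unadjusted p under 0.05 there was 1 member, Mef2c (-0.32, SE 0.11, limma adjusted p = 0.957), against 5.12% of genes. For Pou3f1 the difference was 0.29, with a 95% interval from -0.13 to 0.72, for Pou3f2 it was -0.10 (-0.28 to 0.08) and for Unc5d -0.10 (-0.41 to 0.20). That Pou3f1 passed in 1 genotype and Pou3f2 and Unc5d in the other is therefore not a difference between the genotypes by this test.

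**Figure D3:**
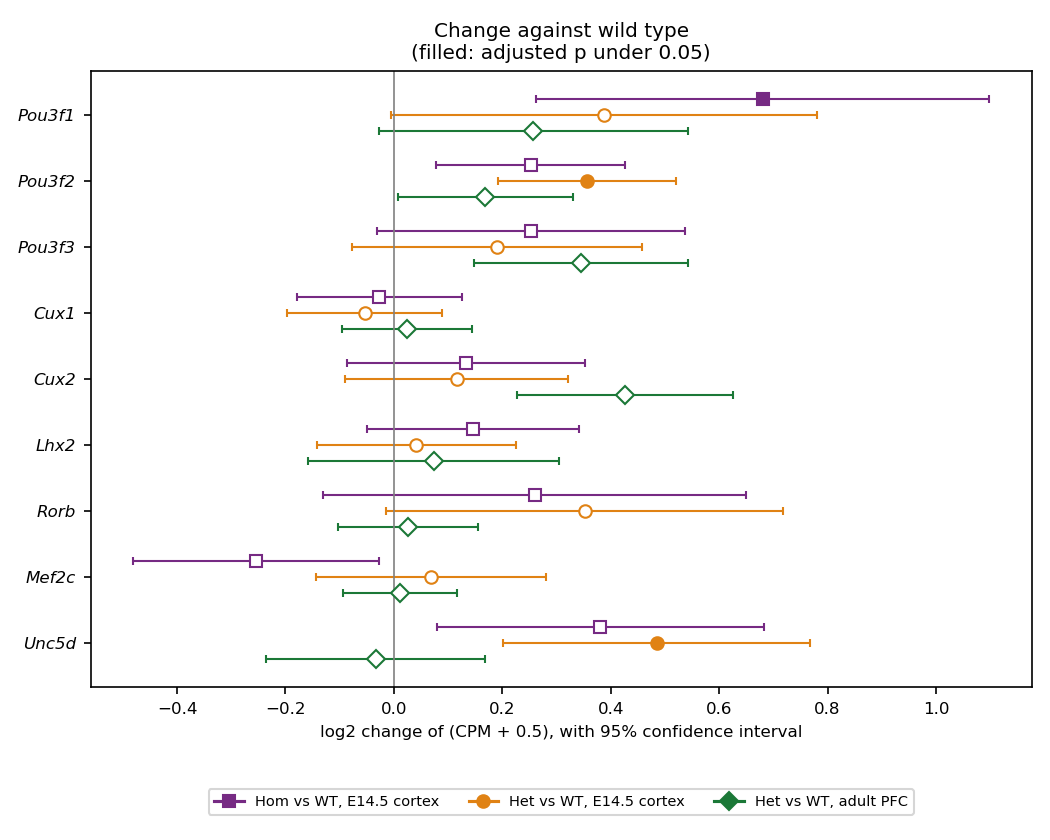
Log2 change of each member against wild type, with its 95% confidence interval, for Hom and Het embryos and Het adults, filled where the adjusted p was under 0.05. The filled points are Pou3f1 in Hom (0.68) and Pou3f2 and Unc5d in Het embryos (0.36 and 0.48), and both embryonic comparisons use the same WT libraries.

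A list of 15 other upper-layer genes, of which 10 were tested in embryos, had 1 gene higher in Hom and 2 in Het. Over all genes, 3.23% were called higher in Hom and 2.84% in Het. Lmo4, a LIM-only cofactor of transcription, rose from 35.8 CPM in WT to 50.8 CPM in Hom (0.50, SE 0.11, adjusted p = 0.0081) and 46.9 CPM in Het (0.36, SE 0.10, adjusted p = 0.0383). The list medians were 0.12 in Hom and 0.05 in Het. Plxnd1, a semaphorin receptor, had a change of -0.48 in Hom (adjusted p = 0.12), and Wfs1 one of -0.78 in Het (adjusted p = 0.171).

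Genes of other neuron classes and of progenitors were also examined in the same embryos. Of 12 deep-layer genes, 1 was called in each comparison, where 7.6% (Hom) and 5.83% (Het) of all genes were called. It was Tbr1, a T-box factor of early-born neurons (0.45 in Hom and 0.55 in Het). The deep-layer medians were 0.16 and 0.17, against 0.25 and 0.19 for the upper-layer members. Medians were 0.25 and 0.25 for 6 projection neuron genes and 0.51 and 0.33 for 9 GABAergic genes. Other lists had negative medians, such as 7 endothelial genes (-0.50 and -0.15). Positive medians were thus not particular to the members. Bhlhe22, a basic helix-loop-helix factor of projection neurons, rose by 0.71 in Hom and 0.81 in Het, and Neurod6, of the same class, by 0.24 in Het. Of 10 radial glia genes, Sox2 (0.59) and Emx2 (0.56) rose in Hom and Prom1 (-0.43) fell, and none was called in Het. Of 8 intermediate progenitor genes, Mfap4 (-0.28) fell in Hom and Neurog2 (0.36) rose in Het. None of the 9 tested paralogs of the members was called in embryos at limma adjusted p under 0.05. The same held for 8 ligands and coreceptors of UNC5 receptors. In each comparison 2 paralogs and 1 UNC5 partner had an unadjusted p under 0.05, against 23.2% (Hom) and 22.3% (Het) of genes.

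In adult PFC, 0 of 9 members were called in Het against WT, where 0.404% of 12870 genes were called, and 3 members had an unadjusted p under 0.05, against 13.6% of genes. These were Cux2, Pou3f3 and Pou3f2, and all 6 Het libraries lay above the WT mean for each, as for 5.34% of genes. The log2 change was positive for 8 of 9 members (53.8% of genes), with a median of 0.07 over the members and 0.01 over all genes. With 0 members called in the adult, the calls alone do not show whether the embryonic changes were kept.

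Cux2 came closest to the threshold. WT adults ran from 49.1 to 69.8 CPM with a median of 60.2 CPM, and Het adults from 67.0 to 100.3 CPM with a median of 77.4 CPM. Of the 6 Het libraries, 5 lay above each WT library, the exception being Het F07 at 66.95 CPM against WT M07 at 69.8 CPM. Het exceeded WT by 0.43 on the log2 scale (SE 0.10), a fold of 1.34, which just missed the threshold (limma adjusted p = 0.0507). Cux2 was called when WT M07 (0.47, adjusted p = 0.0236), Het M08 (0.47, adjusted p = 0.0320) or Het M09 (0.47, adjusted p = 0.0306) was left out, and with a pseudocount of 2 CPM (adjusted p = 0.0465). It was not called in the other 9 of 12 fits without a single library, where the change went down to 0.35 (without Het F02) and the adjusted p up to 0.15 (without WT F10), and it was called in 5 of 13 other settings. Within the 7 animals whose identifiers share the leading number 14309 the change was 0.49 (adjusted p = 0.0531).

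The POU factors followed at smaller sizes. Pou3f3 ran from 18.8 to 23.5 CPM in WT and from 21.2 to 36.4 CPM in Het, with 4 of 6 Het libraries above each WT library, and changed by 0.35 (SE 0.10, adjusted p = 0.0965). Pou3f2 ran from 27.5 to 33.9 CPM in WT and from 30.7 to 36.8 CPM in Het (0.17, SE 0.08, adjusted p = 0.336). The groups overlapped through WT M11, which at 33.95 CPM stood apart from the other WT libraries (27.5 to 29.3 CPM). Pou3f1 ran from 8.31 to 12.2 CPM in WT and from 9.31 to 17.9 CPM in Het, with Het F02 the highest (0.26, SE 0.14, adjusted p = 0.418).

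None of the remaining members was called in the adult, and their log2 changes ran from -0.03 (Unc5d) to 0.07 (Lhx2). Their intervals leave out the direction removed by RUVr and can be too narrow. Mef2c, the most abundant, measured 739 CPM ± 19.9 in WT and 746 ± 54.5 in Het (SD, n = 6 and 6), with a 95% interval of the log2 change from -0.09 to 0.12. For Cux1 (66.7 and 67.8 CPM) the interval was -0.10 to 0.14, and for Rorb (88.9 and 90.6 CPM) -0.10 to 0.15. Lhx2 measured 13.6 and 14.2 CPM with a wider interval of -0.16 to 0.30, and Unc5d 21.1 and 20.8 CPM with -0.23 to 0.17. Unc5d, called in Het embryos, thus had an adult estimate near 0 (-0.03), but the tissues were fitted separately and the difference between them was not tested.

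**Figure D4:**
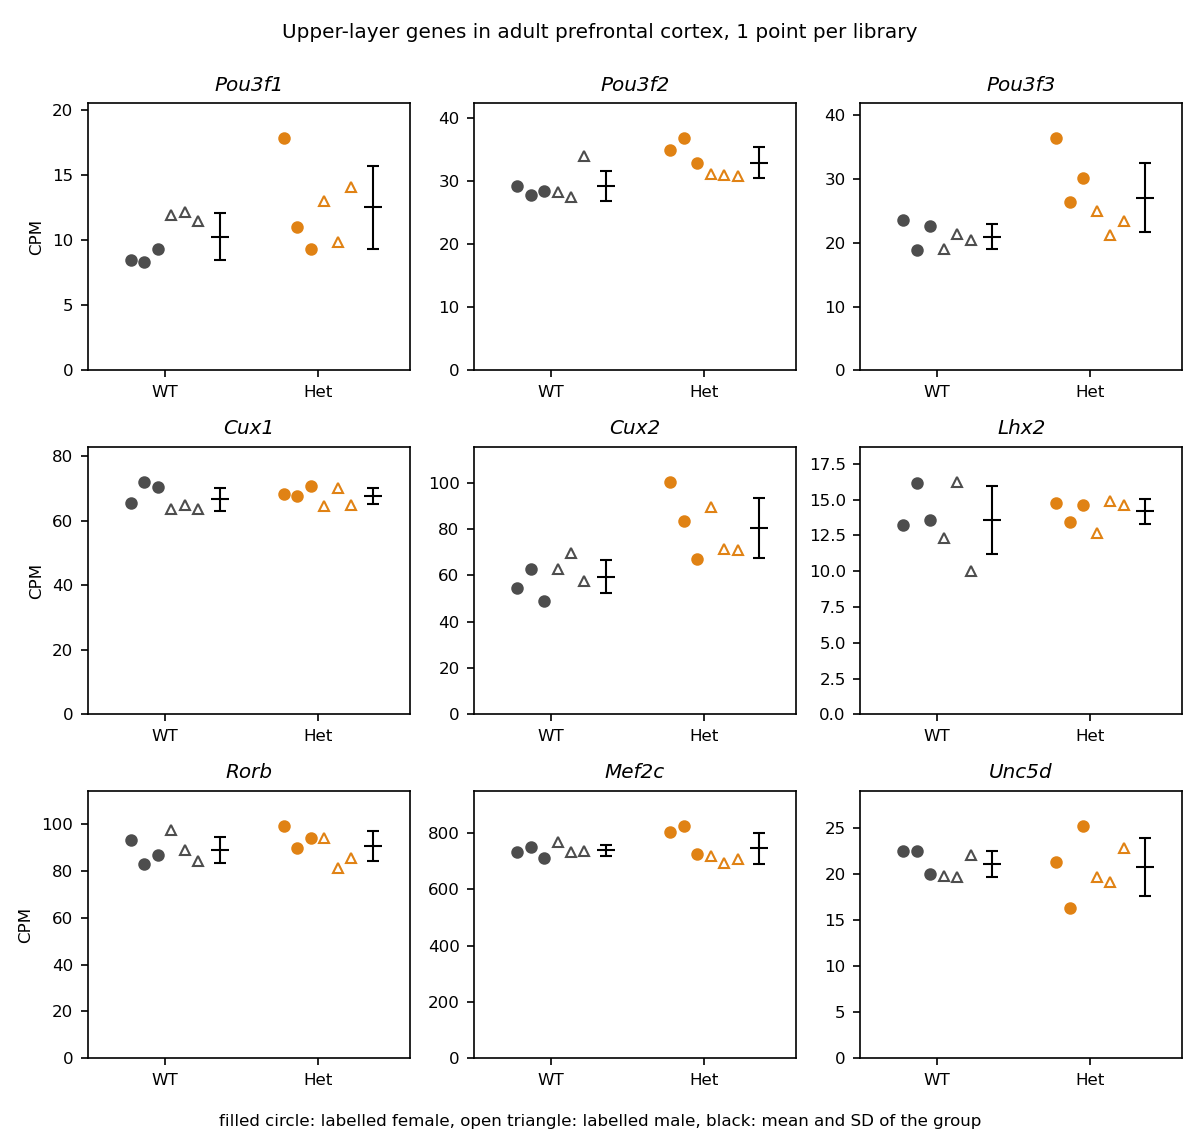
CPM of each member in adult PFC, 1 point per library on axes that start at 0, with filled circles for females, open triangles for males and the mean and SD of each group in black. For Cux2, 5 of 6 Het libraries lie above the highest WT library at 69.8 CPM.

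Both sexes were represented equally in the PFC, so the Het change could be compared between them. The interaction of genotype and sex, coded as male minus female, was called for 0 of 9 members and for 0% of all genes by limma, and 8.48% of genes but 0 members had an unadjusted p under 0.05. The estimates were -0.30 for Cux2 (adjusted p = 0.679), -0.31 for Pou3f3 (adjusted p = 0.663) and -0.43 for Pou3f1 (adjusted p = 0.685). Fitted by sex, Cux2 changed by 0.58 in females (adjusted p = 0.0215) and 0.28 in males (adjusted p = 0.998), and Pou3f3 by 0.50 (adjusted p = 0.0480) and 0.19 (adjusted p = 0.998). Passing in 1 sex only is not a difference between the sexes where the interaction did not pass.

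Of the other upper-layer genes, 14 were tested in the PFC and none was called by limma, where 0.404% of genes were called. At an unadjusted p under 0.05 there were 5, against 13.6% of genes. Inhba, a subunit of activins, went from 21.4 CPM in WT to 33.8 CPM in Het (0.71, SE 0.15, adjusted p = 0.0507), a value of adjusted p equal to that of Cux2 and chosen after it was seen. Calb1, a calcium buffer of upper-layer and inhibitory neurons, measured 342 and 285 CPM (-0.27, SE 0.08, adjusted p = 0.136). The list median was 0.02. GABAergic markers, summed over 10 of 11 genes, ran from 296 to 344 CPM in WT and from 309 to 490 CPM in Het, where the highest libraries were F07 and M08, which had Cux2 at 66.95 and 71.3 CPM, in the lower part of the Het range. Their part in the Cux2 values was not tested.

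In the values after RUVr, the members did not vary as a block between libraries of a genotype. RUVr removes variation that genes share between libraries, so whether they did so before it cannot be told. After subtracting each genotype mean of log2(CPM + 0.5), Pearson's r was positive for 21 of 36 member pairs over 16 embryonic libraries, with a median of 0.0854. It ran from -0.602 for Pou3f1 and Mef2c to 0.720 for Cux2 and Pou3f3. Over 12 PFC libraries it was positive for 23 of 36 pairs (median 0.115), from -0.616 for Pou3f2 and Lhx2 to 0.657 for Cux2 and Pou3f1. These are descriptions across libraries that share a scaling step, dissection and labelled sex, and pairs of other genes were not described.

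**Figure D5:**
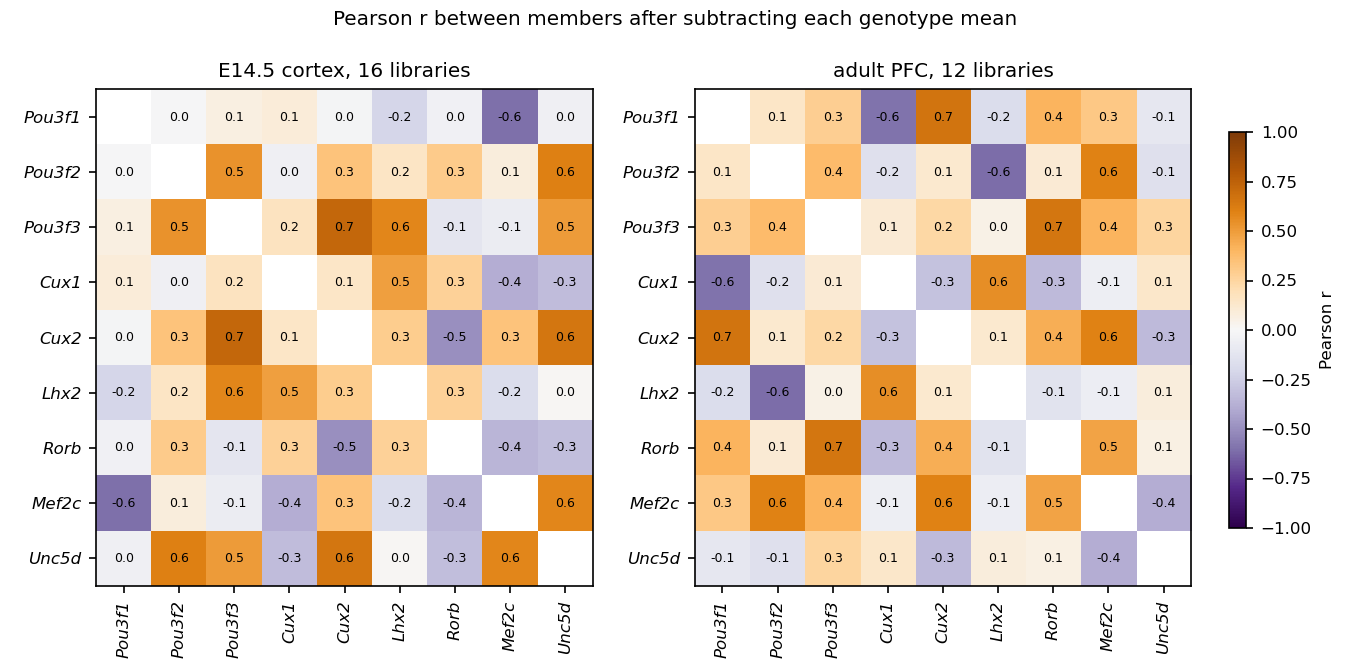
Pearson's r between members over libraries, after subtracting each genotype mean of log2(CPM + 0.5), in E14.5 cortex (left, 16 libraries) and adult PFC (right, 12 libraries), coloured from -1 to 1. The highest embryonic pair is Cux2 with Pou3f3 (0.720) and the lowest Pou3f1 with Mef2c (-0.602).

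By the same measure, the tested genes whose residual pattern over the 16 embryonic libraries was most like Pou3f1 were Ctps (r = 0.909, Spearman's rho 0.841), E130311K13Rik (0.898 and 0.862) and Tmem130 (0.888 and 0.882). For Pou3f2 they were Cenph (0.865 and 0.876), Mmut (0.821 and 0.844) and Kcnk5 (0.820 and 0.818). For Unc5d they were Tcp11l1 (0.908 and 0.912), Tmbim4 (0.902 and 0.941) and Tmem29 (0.899 and 0.906). No other member was among the 3 genes most like any of these, and the highest of 12429 values is high by selection alone.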

How the data were processed

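The authors deposited 1 table per tissue of log2 CPM values after RUVr, a method that removes unwanted variation estimated from residuals, with the upper quartile of every library made equal. The tools HTSeq, STAR, Bowtie2 and Trimmomatic and the build mm10 are listed, without roles or versions, per the submitters' processing notes, and per the labels' protocols libraries were made with the SMARTer Ultra Low RNA kit. Use of strand in counting was not stated, so whether reads of antisense genes, such as Gm2164 at Pou3f1, were counted under the members is not known.

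CPM was recovered by undoing the log2 scale and its prior count of 2, and 100% of values then came out whole within 0.01, but as scaled numbers. All libraries of a tissue entered 1 limma 3.58.1 fit (R 4.3.3; lmFit, eBayes with trend and robust) on log2(CPM + 0.5), with genotype and labelled sex, over genes at 1 CPM or more in at least 4 (E14.5) or 6 (PFC) libraries. A fold change on that scale understates the change of low genes. P-values were adjusted by Benjamini-Hochberg over 12429 or 12870 genes. After RUVr, 2 directions among E14.5 libraries and 1 among PFC libraries held almost no variance, and the fit does not count them. P-values and intervals therefore measure only the spread between these animals that was left after RUVr. P-values can be too small and intervals too narrow. With those directions as covariates, genes called went from 944 to 511 in Hom and from 724 to 335 in Het embryos. In adult Het they went from 52 to 17. Nothing says that libraries are separate litters.

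The members and the lists of other genes were chosen with earlier results of these data known. Besides the members and Myt1l, named genes are at most 3 called genes of a list per comparison with the lowest p and the 3 genes most like each called member, while Plxnd1, Wfs1, Inhba and Calb1 were chosen after their values were seen. The values of 1 listed gene are not reported here. Coordinates and lengths came from GENCODE vM21 on GRCm38. Alternatives covered the pseudocount, filter, scaling, covariates, GC content and length, labelled sexes, identifier numbers and single libraries. Embryos labelled female include Het F10, whose Ddx3y level went against its label. Figures were drawn with matplotlib 3.10.9.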

Additional observations from a re-analysis of the deposited data

Results flagged for a closer look

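In adult PFC, Pou3f2 in the library WT M11 stood apart from the other WT libraries, at 33.95 CPM against 27.5 to 29.3 CPM. Its gap to the nearest library exceeded the 95% limit of Dixon's test for 6 values. Such a gap was looked for in 45 sets of values and found in 1, where chance is expected to mark 2.25. Without WT M11 the log2 change of Pou3f2 in adult Het was 0.22, against 0.17 with it.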

How the results depend on the processing

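Over the changes of single members and the alternatives tried, 1027 values kept their direction and their side of the threshold, 27 called values lost the call, 10 gained one and 34 changed sign. No sign change touched a change called with all libraries, and the causes were not tested. With GC content and length corrected, Mef2c went to -0.051 in Het embryos, and in adult Het Cux1 to -0.068, Rorb to -0.053 and Mef2c to -0.044; median centring took adult Mef2c to -0.0036. Fits by labelled sex gave adult Cux1 at -0.0074 and Lhx2 at -2.9e-04 in females, adult Rorb at -0.055 and Mef2c at -0.076 in males, and Cux2 between Hom and Het at -0.046 in females and -0.018 with no sex term. Within the leading number 14424, Cux1 was at -0.029 and Cux2 at -0.069 between Hom and Het, and within 14309 Cux1 was at -0.025 in adult Het. Without Het F10 and Het M11, Lhx2 in Het embryos was at -0.0020 and Rorb between Hom and Het at 0.094.

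Leaving out single libraries gave ranges across 0 for Cux1 in Hom (-0.072 to 0.0053), Lhx2 (-0.0158 to 0.10) and Mef2c (-0.024 to 0.15) in Het embryos, for Cux1 (-0.013 to 0.059), Cux2 (-0.0505 to 0.082), Pou3f3 (-0.017 to 0.14) and Rorb (-0.21 to 0.022) between Hom and Het, and for Rorb (-4.2e-04 to 0.0598), Lhx2 (-0.0058 to 0.14), Mef2c (-0.016 to 0.030) and Unc5d (-0.093 to 0.045) in adult Het.

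Members called in Hom were 1. That count was 0 with the identifier number as a term, with RUVr directions as covariates, without limma's trend and robust options, in embryos labelled female and within 14424. With GC correction it stayed 1, but as Mef2c (-0.36) in place of Pou3f1 (0.58). The 2 called in Het embryos became 1 with median centring, RUVr directions, no trend and robust options, GC correction or 2 genotypes fitted, and 0 within 14424. The adult count of 0 became 1 with a pseudocount of 2 CPM, no filter, a filter of 5 CPM or median centring and 2 in females. Without single libraries these counts ran from 0 to 1 in Hom, 0 to 2 in Het embryos and 0 to 1 in adults.

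Over all genes, the 944 called in Hom became 511 with RUVr directions, 468 without limma's trend and robust options and 68 within 14424, and 489 to 1099 without single libraries, the low counts being those without Hom F04, WT F04, Hom F09, Hom F01 or Hom M02 (489 to 592). The 724 in Het embryos became 335, 225 and 0 under the same settings, 450 in embryos labelled female and 379 with 2 genotypes fitted. Without single libraries they ran from 131 (without Het F07) to 1177 (without Het M07), with 303 to 473 without WT F04, Het F02, Het M01, WT F06, WT F12 or Hom M02. The single call between Hom and Het became 0 with voom, the identifier number, RUVr directions, no trend and robust options, embryos labelled female, 14424 or 2 genotypes fitted. It became 0 to 1 without single libraries. The 52 in adult Het became 2 with no sex term, 19 with the identifier number, 17 with RUVr directions, 0 without limma's trend and robust options, 340 in females, 2 in males, 185 within 14309 and 3 to 127 without single libraries, with 3 to 31 without WT F04, WT M11, Het F07, Het F04, WT F10, Het F02 or WT F06 and 97 to 127 without WT M07, Het M05 or Het M09. The interaction count of 0 became 1 after GC correction and 0 to 13 without single libraries (13 without WT F06). Calls higher and lower split 401 to 543 in Hom, 353 to 371 in Het embryos and 23 to 29 in adults, and 294 to 746, 213 to 509 and 20 to 51 with median centring. No paired analysis was possible because identifiers differ between all animals. The depth of each library is unknown, which limits what can be said of weak members such as Pou3f1.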
